A study of Rattus norvegicus with 8 samples.

Results

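The 8 genes described here, Mal, Ugt8, Mobp, Mbp, Mog, Mag, Cnp and Cldn11, encode components of the myelin sheath or make its lipids, and mature oligodendrocytes are their main source in the brain. They are 8 of 12206 genes named on the array, and all 12 of the 41012 distinct non-control probes whose RefSeq accession maps to these symbols are given. The genes were chosen by known role, but with the signal differences between the diets already seen, in which Mal, Ugt8 and Mobp stood out. Their differences are therefore a description, and counts from the fit over all probes are printed only beside the same counts for the whole array. RNA came from the hippocampus of 8 male Wistar rats, 4 fed a standard feed (CE-2) with 0.1% coral calcium hydride (CCH), a powder of hydrogen-bearing coral calcium, and 4 fed the standard feed alone (control). The rats entered the study at 6 weeks of age and were killed at 8 weeks. Each rat had 1 one-colour Agilent array hybridised with Cy3-labelled RNA. All 4 CCH arrays lay on slide 2 and all 4 control arrays on slide 1, and the slides were scanned separately. An effect of slide or scan thus cannot be told apart from one of diet.

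Myelin is the spiral of membrane that oligodendrocytes wrap around axons, and it lets nerve impulses travel fast and at low cost. Its cytoplasmic faces are held together by basic proteins such as Mbp and Mobp. Its lipids are rich in galactosylceramide, which the enzyme Ugt8 makes, and Mal is a small tetraspan proteolipid of the cholesterol- and glycolipid-rich domains of this membrane. Cldn11 forms the tight junctions between its layers, Mag and Mog are immunoglobulin-family proteins of its innermost and outermost surfaces, and Cnp lines its cytoplasmic channels. In the rat hippocampus myelination is still under way in the weeks after weaning, and the fimbria and alveus are rich in myelin.

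Between 33091 and 34643 of 43379 non-control spots per array were well above background, and precision is limited by having 4 arrays a group. The 75th percentile of the processed signal averaged 732 ± 110 on CCH arrays and 611 ± 61.0 on control arrays (SD, n = 4 each; two-sided exact permutation p = 0.0857, where 0.0286 is the smallest possible). The median spot background averaged 34.9 ± 0.25 on CCH arrays and 33.3 ± 0.957 on control arrays (SD, n = 4 each; two-sided exact permutation p = 0.0286), without overlap. Each signal below is divided by its own array's 75th percentile, which does not remove a difference in background. Groups were taken from the sample titles, which the treatment labels match. The free-text descriptions of these samples contradict both, since they name a hemiparkinsonian model and injections.

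Transcripts of mature oligodendrocytes were present on every array. Of 15 markers of these cells 15 had a probe well above background on all 8 arrays, among them 7 that are no members, such as Opalin, Aspa, Ermn and Hapln2. Of the 12 member probes 11 were well above background on all 8 arrays and entered the fit. The exception was a second Ugt8 probe (A_43_P12003), which was not well above background on any array, with a deposited signal of 1.46 to 1.71 on CCH arrays and 1.06 to 1.61 on control arrays, so it gives no level. In bulk tissue, a change in the number of oligodendrocytes and a change in RNA per oligodendrocyte cannot be told apart.

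Transcription of myelin genes in oligodendrocytes depends on the factors SOX10 and MYRF. Promoters of 7 of the 8 genes were matched in a RefSeq table of the GRCr8 build, from 250 bases before to 50 after the start of the transcript. They were searched on both strands for the SOX-type letters ACAAAG and ACAATG and for the letters CTGGCAC and CTGGTAC reported for MYRF. The following 4 are shown, with such letters in capitals. Cnp, with the smallest positive difference between the diets, and Mbp also carry such letters and are not shown. Ugt8, with the largest difference, carries none. A link between these letters and the differences was not tested.
Mal promoter, chr3:135341374-135341673, minus strand: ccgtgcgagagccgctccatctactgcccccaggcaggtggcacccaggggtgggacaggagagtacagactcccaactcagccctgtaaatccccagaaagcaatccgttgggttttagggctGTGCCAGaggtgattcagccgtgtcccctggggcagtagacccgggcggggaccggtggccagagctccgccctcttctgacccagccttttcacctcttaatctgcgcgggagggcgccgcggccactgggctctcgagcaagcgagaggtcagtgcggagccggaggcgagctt
Mobp promoter, chr8:128746982-128747281, plus strand: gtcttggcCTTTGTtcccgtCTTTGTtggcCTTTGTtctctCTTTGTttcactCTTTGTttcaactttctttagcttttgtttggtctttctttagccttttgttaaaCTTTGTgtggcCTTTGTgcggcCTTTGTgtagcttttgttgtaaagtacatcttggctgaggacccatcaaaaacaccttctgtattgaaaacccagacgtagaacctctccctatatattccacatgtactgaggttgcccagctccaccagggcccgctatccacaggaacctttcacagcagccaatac
Mag promoter, chr1:95290995-95291294, minus strand: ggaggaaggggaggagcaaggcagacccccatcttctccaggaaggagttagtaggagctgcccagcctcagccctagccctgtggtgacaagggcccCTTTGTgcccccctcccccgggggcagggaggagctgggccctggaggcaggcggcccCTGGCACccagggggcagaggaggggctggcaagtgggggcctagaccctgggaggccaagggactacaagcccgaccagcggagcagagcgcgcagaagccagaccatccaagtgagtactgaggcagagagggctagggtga
Cldn11 promoter, chr2:114149490-114149789, minus strand: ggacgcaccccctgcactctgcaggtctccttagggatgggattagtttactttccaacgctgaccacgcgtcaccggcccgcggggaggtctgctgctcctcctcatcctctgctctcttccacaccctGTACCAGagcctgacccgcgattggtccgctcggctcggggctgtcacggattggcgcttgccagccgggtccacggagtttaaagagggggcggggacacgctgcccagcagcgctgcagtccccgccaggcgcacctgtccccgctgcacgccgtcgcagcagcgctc

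The Mobp promoter held 8 copies of CTTTGT, the reverse complement of ACAAAG, in the 300 bases shown. A SOX-type match was present in 4 of 8 member promoters (Mobp, Mag, Cnp and the downstream one of the pair listed for Mbp), against 29.1% of all 33469 promoters in the table. A MYRF-type match was present in 4 of 8 (Mal, Mag, Cnp and Cldn11), against 6.78% of all promoters. The Ugt8 promoter, with a GC content of 79.3% against a median of 51.7% over all promoters, held neither, and the E-box letters CANNTG occurred in 72.1% of all promoters and in 6 of 8 here. These matches describe letters in a window. In the promoters shown, no SOX-type match overlapped a MYRF-type match.

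On CCH arrays 10 of the 11 tested myelin probes had the higher mean and 1 had the lower. Over all 31617 tested probes 55.1% had the higher mean in CCH, and the later counts of higher and lower means stand beside this share. The median log2 difference (CCH minus control) of the myelin probes was 0.35, against 0.03 over all tested probes. None of the 11 was called by limma at an adjusted p under 0.05 over all tested probes, where 55 probes (0.174%) were called, 0.0759% of all as higher in CCH, and 7 had an unadjusted p under 0.05, against 15.4% of all tested probes. The CCH range lay wholly above the control range in 5 of the 11 probes, against 6.59% of all tested probes, and wholly below it in 0, against 4.69%. The other 6 overlapped. Because the genes were chosen with this comparison known, these counts are not evidence about myelin genes as a class. The plot of signal by array shows every value.

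**Figure D1:**
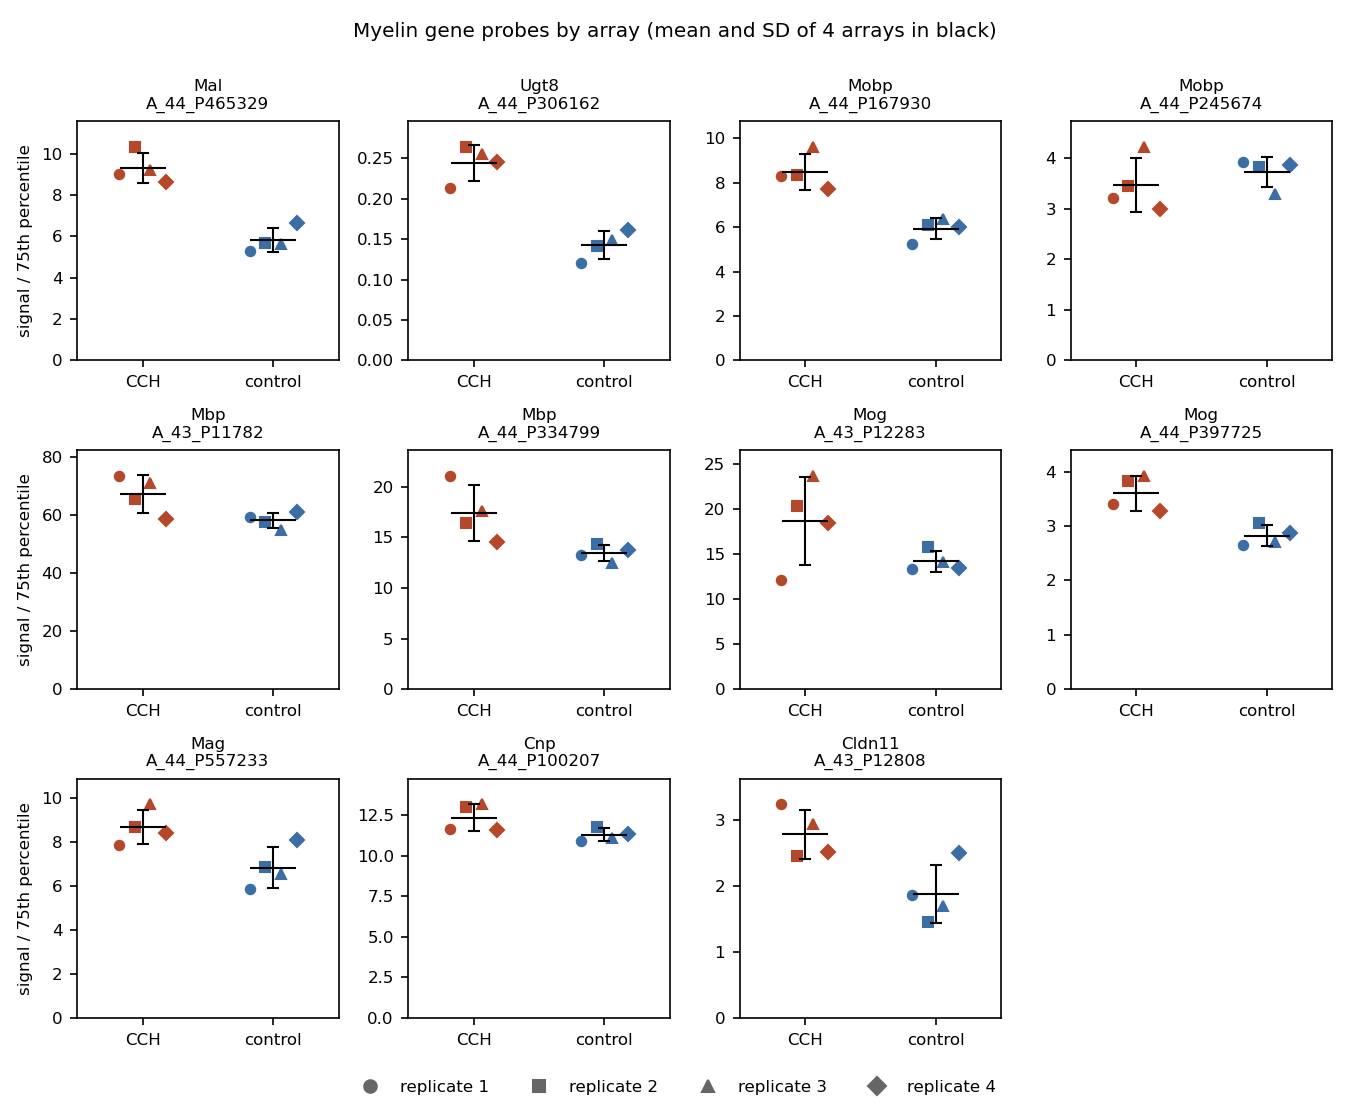
Signal of each tested myelin gene probe divided by the array's 75th percentile (linear axis from 0), with CCH arrays on the left and control arrays on the right of each panel. Symbols mark the replicate number, and black bars give the mean and SD of 4 arrays. The groups do not overlap for Mal, Ugt8 (A_44_P306162), Mobp (A_44_P167930), Mbp (A_44_P334799) and Mog (A_44_P397725).

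The membrane organiser and the lipid enzyme differed most. Mal (A_44_P465329) stood at 9.02, 10.3, 9.24 and 8.65 times the 75th percentile on CCH replicates 1 to 4, against 5.29, 5.68, 5.63 and 6.65 times on control replicates 1 to 4. The lowest CCH array lay well clear of the highest control array. The mean log2 signal was 3.22 ± 0.11 in CCH and 2.53 ± 0.14 in control (SD, n = 4 each), a difference of 0.68 ± 0.10 (SE), or 1.60-fold. Leaving out any 1 array gave 0.63 to 0.75.

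Ugt8, the galactosyltransferase that commits ceramide to galactosylceramide, was measured by its detected probe (A_44_P306162) at 0.213, 0.265, 0.256 and 0.245 times the 75th percentile in CCH, against 0.121, 0.141, 0.149 and 0.162 times in control. This is a dim probe, with a deposited signal of 157 to 198 on CCH arrays and 79.6 to 94.2 on control arrays, over a median spot background of 34.5 to 35 on CCH arrays and 32 to 34 on control arrays. Its groups did not overlap. The log2 difference was 0.78 ± 0.12 (SE), or 1.71-fold. It was 0.35 when the background was modelled with normexp and an offset of 50 was added to each signal. An offset of this size by itself lowers the log2 differences of a probe this dim, so 0.35 does not isolate the background.

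The basic proteins of compact myelin gave unequal answers. Mbp, which glues the cytoplasmic leaflets together, was read brightest by probe A_43_P11782, at 73.7, 65.7, 71.3 and 58.7 times the 75th percentile in CCH and 59.4, 57.8, 54.8 and 61.0 times in control. These groups overlapped, with CCH replicate 4 inside the control range, and the log2 difference was 0.20 ± 0.10 (SE). The other Mbp probe (A_44_P334799) read 21.1, 16.4, 17.6 and 14.5 times in CCH and 13.3, 14.3, 12.5 and 13.8 times in control, without overlap and with a log2 difference of 0.36 ± 0.12 (SE). CCH replicate 1 was the highest array on both Mbp probes.

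Mobp, a smaller basic protein of compact myelin, differed on 1 of its probes. Probe A_44_P167930 stood at 8.30, 8.33, 9.62 and 7.70 times the 75th percentile in CCH, against 5.25, 6.09, 6.36 and 5.99 times in control, with no overlap and a log2 difference of 0.52 ± 0.10 (SE, 1.43-fold). Probe A_44_P245674, which carries the same RefSeq accession, stood at 3.20, 3.45, 4.23 and 3.00 times in CCH and 3.93, 3.83, 3.30 and 3.88 times in control. Here CCH held both the highest and the lowest array. The log2 difference was -0.11 ± 0.12 (SE), from -0.21 without CCH replicate 3 to -0.05 without CCH replicate 4, and 0.14 with no scaling between arrays.

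The claudin of the myelin tight junctions varied most among control rats. Cldn11 (A_43_P12808) stood at 3.23, 2.44, 2.94 and 2.51 times the 75th percentile in CCH, against 1.86, 1.46, 1.70 and 2.49 times in control. Control replicate 4 reached the range of the CCH arrays, and the other 3 control arrays lay below it. The log2 difference was 0.59 ± 0.17 (SE, 1.50-fold), and it was 0.73 without control replicate 4.

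Of the surface adhesion proteins, Mag (A_44_P557233), which faces the axon, stood at 7.86, 8.65, 9.69 and 8.40 times the 75th percentile in CCH and 5.83, 6.86, 6.52 and 8.09 times in control. Control replicate 4 lay above CCH replicate 1, and the log2 difference was 0.35 ± 0.12 (SE). Mog, on the outermost layer, had the log2 differences 0.35 ± 0.20 (SE) on probe A_43_P12283 and 0.35 ± 0.10 (SE) on probe A_44_P397725. The first probe read 12.1, 20.4, 23.8 and 18.4 times in CCH and 13.4, 15.8, 14.2 and 13.5 times in control, and the second 3.40, 3.83, 3.93 and 3.27 times in CCH and 2.65, 3.06, 2.70 and 2.88 times in control. CCH replicate 1 was the lowest of all 8 arrays on the first probe and lay above every control array on the second. Without CCH replicate 1 the first probe differed by 0.55, and without CCH replicate 3 by 0.22.

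Cnp (A_44_P100207), the phosphodiesterase of the non-compact myelin channels, had the smallest positive difference. It stood at 11.7, 13.0, 13.2 and 11.6 times the 75th percentile in CCH and 10.9, 11.8, 11.1 and 11.4 times in control. Control replicate 2 lay above CCH replicates 1 and 4, and the log2 difference was 0.13 ± 0.08 (SE).

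**Figure D2:**
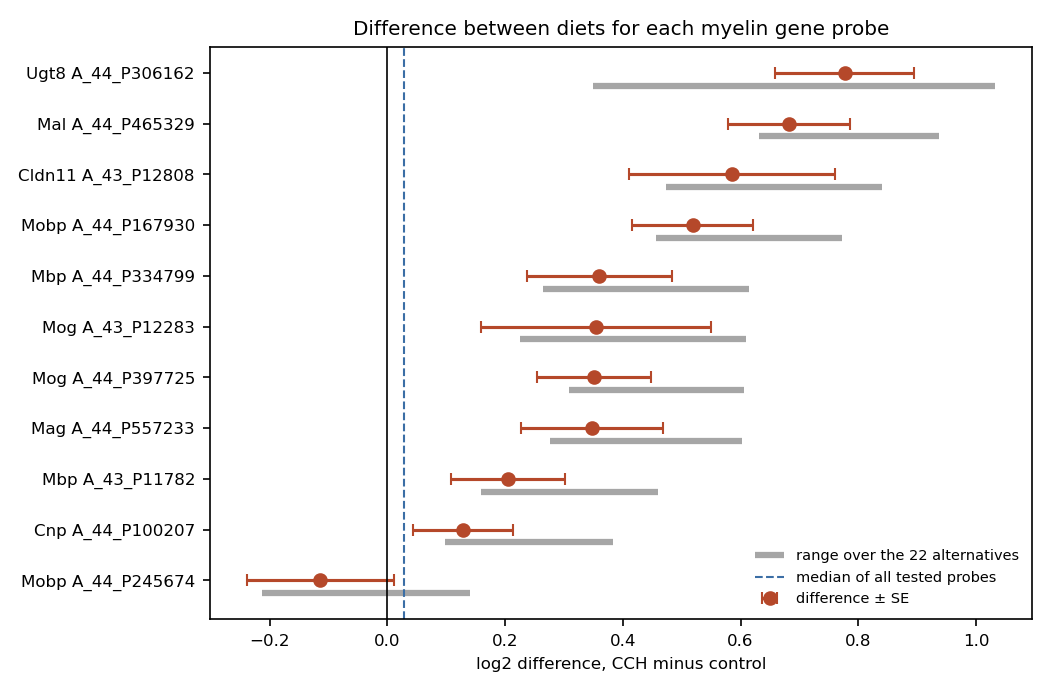
Log2 difference (CCH minus control) of each tested myelin gene probe with its standard error (red), sorted by size, and the range of the difference over 22 alternative settings (grey). The dashed line is the median of all tested probes, at 0.03, and 10 of the 11 differences lie to its right.

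The member probes did not share 1 order of the rats. Within the CCH group replicate 3 was the highest array for 6 of 11 probes and replicate 4 the lowest for 7. Within the control group replicate 4 was the highest for 5 and replicate 1 the lowest for 7. Relative to its group's mean, CCH replicate 3 and control replicate 4 were each above it for 10 of 11 probes, by a mean log2 of 0.14 and 0.11. CCH replicate 4 and control replicate 1 were above it for 2 and 3 probes, at a mean of -0.11 and -0.08.

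For 3 members a pair of tested probes allowed a ratio within each array. Dividing all signals of an array by 1 factor cannot change this ratio, though quantile normalization and background correction can. The Mobp ratio (A_44_P167930 over A_44_P245674) was 2.59, 2.42, 2.28 and 2.56 in CCH, against 1.34, 1.59, 1.93 and 1.55 in control. The CCH ratios all exceeded the control ratios, and such a separation, in either direction, held for 12.2% of 3315 pairs of tested probes that name 1 gene, and the mean log2 ratio was 0.63 higher in CCH. An absolute change of this size or more was seen in 3.86% of those pairs, whose median absolute change was 0.13. The Mbp ratio (A_43_P11782 over A_44_P334799) was 3.50, 4.00, 4.04 and 4.04 in CCH and 4.48, 4.04, 4.39 and 4.43 in control, a log2 change of -0.16 with overlap. The Mog ratio (A_43_P12283 over A_44_P397725) was 3.56, 5.33, 6.05 and 5.64 in CCH and 5.04, 5.18, 5.24 and 4.70 in control, so that the lowest and the highest values were both in CCH. The files name the probes' transcript but not their place in it.

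**Figure D3:**
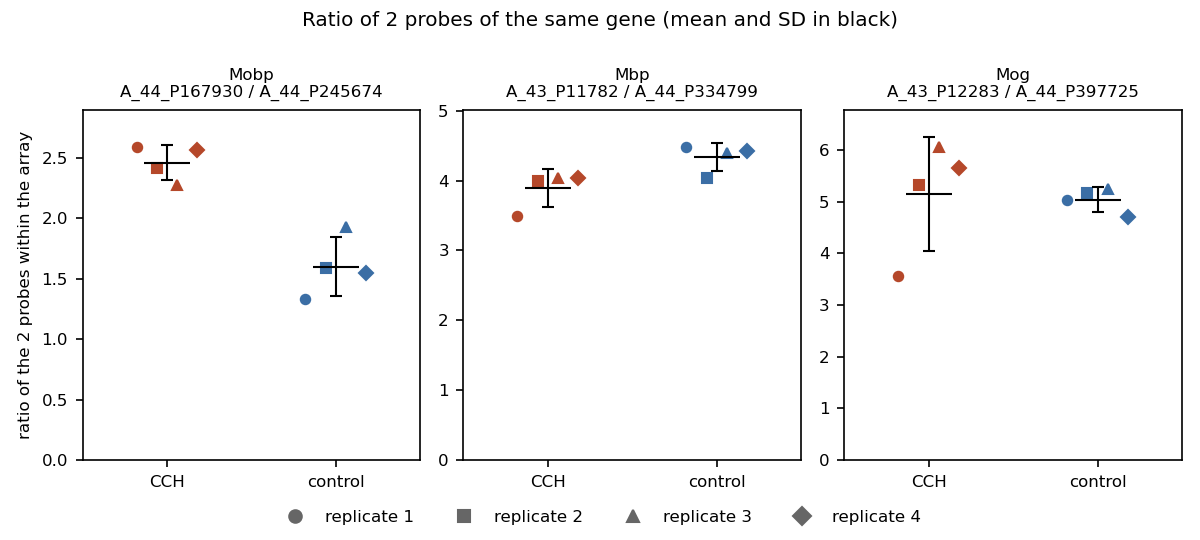
Ratio of the signals of 2 probes of the same gene within each array (linear axis from 0), for Mobp, Mbp and Mog, with CCH arrays left of control arrays. Black bars give the mean and SD of 4 arrays. The Mobp ratios lie between 2.28 and 2.59 in CCH and between 1.34 and 1.93 in control.

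Other genes of myelin and of the oligodendrocyte were read from 5 lists of 70 genes, of which 53 had a tested probe (the brightest per gene is used). The mean was higher in CCH for 38 of the 53 and lower for 15, against 55.1% higher over all tested probes. Limma called 0 of the 53 at the threshold passed by 0.174% of all probes, and 8 had an unadjusted p under 0.05, 6 higher and 2 lower, a share close to the 15.4% of all tested probes. The 21 other genes of the sheath and oligodendrocyte membrane divided into 16 higher and 5 lower in CCH and had a median log2 difference of 0.11 against 0.03 over all tested probes. That median was 0.04 without control replicate 1, 0.06 without CCH replicate 3 and 0.18 without CCH replicate 1. Opalin, a sialylated membrane protein of the oligodendrocyte, differed by 0.47 ± 0.14 (SE, limma adjusted p = 0.185). The iron carrier Tf, which oligodendrocytes secrete and the choroid plexus also makes, differed by -0.45 ± 0.19 (SE, limma adjusted p = 0.300), and the cytoskeletal Ermn by -0.41 ± 0.22 (SE, limma adjusted p = 0.434).

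Probes of 1 gene disagreed in this list too. Tspan2, a tetraspanin chosen here after its values were seen, had log2 differences of 0.21 ± 0.09 (SE) on its brighter probe (A_42_P692798) and 0.55 ± 0.11 (SE, limma adjusted p = 0.0764) on its dimmer one (A_44_P344444), without overlap on either. Opalin was at -0.06 ± 0.12 (SE) on its dimmer probe, which read 0.213 to 0.290 times the 75th percentile against 7.63 to 14.4 times on the brighter one. On brightest probes 1 gene of this list, Tspan2, lay wholly above control, against 6.59% of all tested probes. Tppp was the 1 gene wholly below, against 4.69%, with a log2 difference of -0.23 ± 0.09 (SE, limma adjusted p = 0.268).

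Among the transcription regulators of the lineage, 3 of 6 tested genes had the higher mean in CCH and 3 the lower, at a median of 0.08. This median was 0.26 without CCH replicate 1 and 0.14 without control replicate 4, but 0.02 without CCH replicate 2 or control replicate 3, 0.03 without CCH replicate 3 or 4, and 0.01 with the choroid plexus score as a covariate. Olig1, a helix-loop-helix factor of the lineage, differed by 0.45 ± 0.09 (SE, limma adjusted p = 0.0808), with 17.9, 20.7, 20.7 and 19.6 times the 75th percentile in CCH and 13.6, 14.1, 13.9 and 16.1 times in control. Its groups did not overlap. The homeobox factor Nkx6-2 differed by 0.52 ± 0.13 (SE, limma adjusted p = 0.12) on its brighter probe, which read 3.16 to 5.97 times the 75th percentile. Its dimmer probe, at -0.21 ± 0.14 (SE), read only 0.0345 to 0.0563 times, a level that limits its weight beside the first. Sox10, chosen after its values were seen, differed by 0.23 ± 0.09 (SE, limma adjusted p = 0.287), and the general factor Yy1 by -0.23 ± 0.11 (SE). Myrf and Olig2 had no named probe here.

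Other enzymes of myelin lipids were read next to Ugt8. Of 8 tested genes 6 were higher and 2 lower, with a median of 0.06 that was 0.03 without CCH replicate 3 or control replicate 3. On their brightest probes the largest differences were 0.24 ± 0.16 (SE) for the ceramide synthase Cers2, 0.14 ± 0.10 (SE) for the fatty acid elongase Elovl1 and 0.10 ± 0.11 (SE) for the acyl-CoA synthetase Acsbg1. Elovl1's other probe (A_44_P415504), of similar signal, was at 0.33 ± 0.15 (SE) with CCH above control without overlap. Galc, which breaks galactosylceramide down, was at -0.03 ± 0.17 (SE). Genes of the paranode and axon-glia adhesion were higher for 6 and lower for 3 of 9, with a median of 0.11 that was 0.05 without CCH replicate 2, 0.06 without control replicate 1 and 0.01 with the choroid plexus covariate. The axonal paranode protein Cntn1 was at -0.32 ± 0.18 (SE), the membrane scaffold Epb41l3 at -0.29 ± 0.17 (SE), and the adhesion protein Cadm2 at 0.21 ± 0.12 (SE, from 3 control arrays because 1 spot was marked as an outlier). The other Cadm2 probe (A_44_P548857), with all 8 arrays, was at 0.34 ± 0.09 (SE, limma adjusted p = 0.148), without overlap. Receptors of Mag and of other myelin-derived growth inhibitors were listed together with inhibitors such as Rtn4 and with enzymes. Of the 9 tested genes of this mixed list 7 were higher and 2 lower, so the count is not one of receptors alone. The list's median was 0.11, and it was 0.04 without control replicate 1 and 0.02 with the choroid plexus covariate. The Nogo receptor homologue Rtn4rl2, which binds Mag, was at -0.33 ± 0.16 (SE), Rtn4rl1 at 0.18 ± 0.19 (SE), and Rtn4, which encodes Nogo, at 0.23 ± 0.09 (SE).

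Markers of other cells and regions were set beside the members. Choroid plexus markers, 10 of 11 measured and 10 of 10 lower in CCH, had a summed signal of 107, 2.72, 187 and 1.89 times the 75th percentile on CCH replicates 1 to 4, against 244, 35.2, 253 and 167 times on control replicates 1 to 4. CCH replicates 2 and 4 thus stood apart from the other 6 arrays. Without both of them the median difference of the myelin probes was 0.37, and it was 0.35 with the choroid plexus score as a covariate. Markers of meninges and fibroblasts ranged from 25.3 to 78.9 times in CCH and from 16.3 to 197 times in control (9 of 9 measured).

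Markers of oligodendrocyte precursors, 9 of 12 measured, summed to 17.4 to 21.8 times the 75th percentile in CCH and 18.6 to 20.5 times in control, and 7 of the 9 had the higher mean in CCH. Of these 9, 3 (among them Bmp4) lay wholly above control, against 6.59% of all tested probes. Bmp4, a growth factor of the committed precursor, was at 0.78 ± 0.14 (SE, limma adjusted p = 0.0634). Neuronal markers (7 of 8 measured) summed to 139 to 163 times in CCH and 131 to 165 times in control, astrocyte markers (10 of 10) to 136 to 162 and 143 to 162 times, and microglia markers (12 of 12) to 45.3 to 55.7 and 52.9 to 59.6 times. Of the 12 microglia markers 9 had the lower mean in CCH, at a median log2 difference of -0.16. Wholly below control lay 3 of them (Aif1, Tmem119 and Tyrobp), against 4.69% of all tested probes. Among the 10 astrocyte markers 1 lay wholly above control. Schwann cells of peripheral nerve also make Mal, Mag, Mbp and Cnp. Their marker Pmp2 was well above background on too few arrays to be tested. The summed Schwann markers, 5 of 8 measured, ran from 3.99 to 4.30 times in CCH and from 3.33 to 4.36 times in control. Blood markers, 6 of 7 measured, ran from 2.73 to 4.46 times in CCH and from 2.36 to 4.91 times in control, and limma called 1 of them, the T cell gene Cd3e (1.02 ± 0.14, SE, adjusted p = 0.0432). Thalamic and habenular markers, 4 of 8 measured, ran from 3.38 to 7.23 and from 3.96 to 7.54 times. The part of any of these in the members' differences was not tested beyond the values given.

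**Figure D4:**
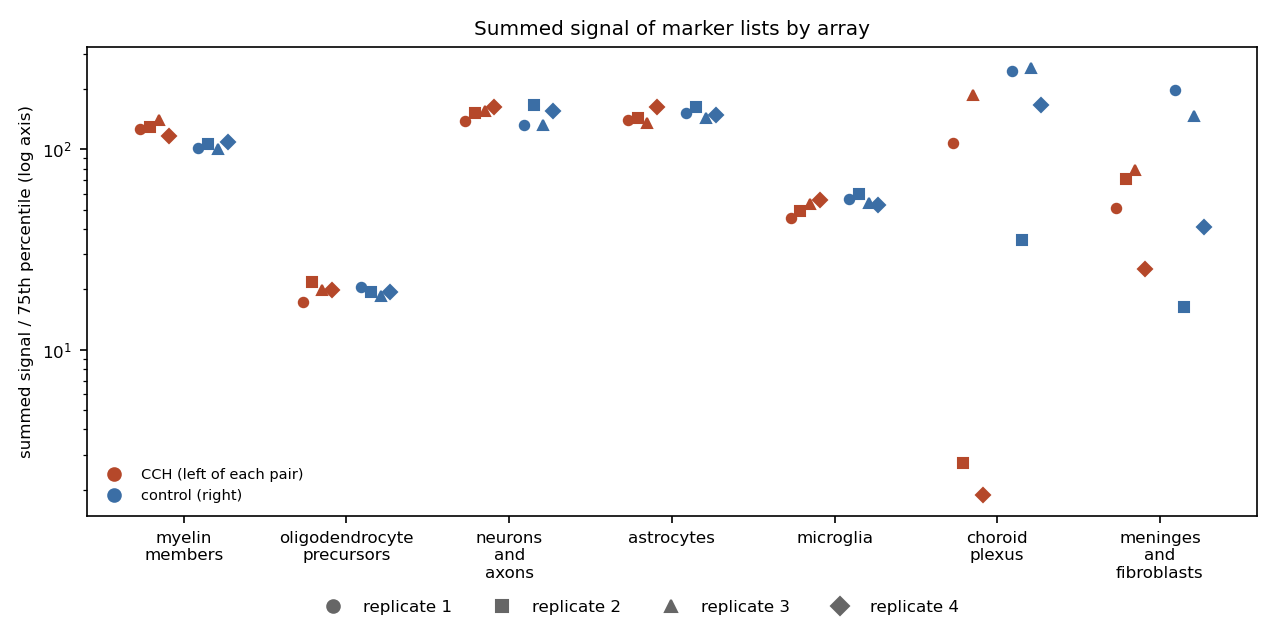
Summed signal of the tested genes of each list (brightest probe per gene, as multiples of the array's 75th percentile, log axis) by array, with CCH arrays left of control arrays in each pair. The 8 myelin genes, chosen with this comparison known, lie between 116 and 140 in CCH and between 100.4 and 109 in control. The Mbp probe A_43_P11782, whose groups overlap, makes up 58.7 to 73.7 of this sum in CCH and 54.8 to 61.0 in control. Choroid plexus markers fall to 2.72 and 1.89 on CCH replicates 2 and 4.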

How the data were processed

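Per the file headers, the authors scanned 8 one-colour arrays and extracted spot intensity with Agilent Feature Extraction 9.5.3.1. The deposited processed signal is a linear intensity, background-subtracted and detrended by that software, and arrays were not normalized to each other. The deposited value table held the same intensity rounded (largest relative difference 0.00498). Of 41012 probes 15184 (37.0%) were named by matching RefSeq accessions, versions removed, to a GRCr8 table. The array grid names build rn4, so probe coordinates are not given.

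Outlier-marked spots (55 to 122 per array) were set to missing. Log2 signal minus each array's 75th percentile was averaged over spots of a probe. Probes well above background on at least 4 of 8 arrays, with at least 3 values per group, were tested (31617). Differences (CCH minus control) and two-sided p-values came from limma 3.58.1 (R 4.3.3). P-values were adjusted by Benjamini-Hochberg over every tested probe, and 0.05 was the threshold. The fit was tested on simulated data. The members and lists were chosen with earlier results of these data known. Text names every member probe, the 3 genes of each context list with the largest absolute difference, and 5 genes most alike in pattern. Tspan2, Tppp, Sox10, Galc, Bmp4, Cd3e, Aif1, Tmem119 and Tyrobp were added after their values were seen. Some genes are not reported here. The design text gives 8 rats for the 8 arrays. Alternatives covered background correction, scaling, filters, variance model, a replicate block, a covariate and left-out arrays. The scanner files hold the median, not the mean, spot signal, so normexp used that, with an offset of 50.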

Additional observations from a re-analysis of the deposited data

Results flagged for a closer look

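On the Mobp probe A_44_P245674, control replicate 3 had a log2 signal of 1.72 relative to its array's 75th percentile, against 1.94 to 1.97 on the other 3 control arrays, a gap of 0.862 of the group's range (above Dixon's critical value for 4 values). It was the 1 value so marked among 66 groups of 4 values examined, of which chance marks about 5%. This is the Mobp probe whose mean was lower in CCH.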

How the results depend on the processing

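The median log2 difference of the myelin probes (0.35) stayed between 0.31 and 0.61 over 22 alternatives, and between 0.31 and 0.40 with 1 array left out. With no scaling between arrays it was 0.61, while the median of all tested probes was then 0.28. It was 0.44 with 1 probe per gene. Of 242 single-probe values under alternatives 221 were above 0, and the 21 below 0 all belong to Mobp A_44_P245674. The number of myelin probes called, 0, ran from 0 to 5 over the alternatives. The 5 came with no scaling, where 1726 of all 31617 tested probes were called. The medians of the other lists stayed above 0 but moved by over 1.5 times with 1 array left out, as given beside each. The number of probes called over the whole array, 55 (24 higher and 31 lower in CCH), was far less steady. It was 189 with normexp (56 higher, 133 lower), 85 when the percentile was taken over probes detected throughout, 1726 with no scaling (1694 higher, 32 lower), 29 with no detection filter and 209 with detection on all 8 arrays. It was 215 with eBayes trend and robust settings, 1295 with array weights (701 higher, 594 lower), 1 with the choroid plexus covariate and 0 without CCH replicates 2 and 4. With 1 array left out it ran from 0 to 708, the 708 without CCH replicate 1 and 0 or 1 without any other. With the replicate block it was 0. Same-numbered arrays deviated together only weakly (correlations 0.15, 0.08, -0.01 and 0.25), which cannot show whether the rats were paired. The replicate number is also the array's position on its slide, so this block stands for both. The causes of these shifts were not tested. A slide block was not run because each slide holds 1 group, and naming probes by a gene name column was not run because the scanner files used here hold none. Intensities near background limit the dim Ugt8 probe.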

Other observations

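Among 9656 named genes outside the myelin lists, those whose signal, centred on each group's mean, followed the members' mean over the 8 arrays most closely were Gtf3c2 (Pearson r = 0.967), Tmcc3 (0.939), Map7 (0.937), Tmem67 (0.933) and Orc5 (0.917). Gtf3c2 encodes a subunit of the general factor of RNA polymerase III, Map7 a microtubule-associated protein, Tmem67 a membrane protein of the ciliary transition zone and Orc5 a subunit of the origin recognition complex. The points share the same 8 arrays and their scaling, and high values are common when so many genes are compared over so few arrays. Their log2 differences were 0.11, 0.15, 0.21, 0.16 and 0.16, and the lowest limma adjusted p among them was 0.285 (Map7). Among the members themselves, centred the same way, Mag followed the mean of the others most closely (r = 0.908) and Cldn11 least (r = 0.056).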
